A study of Mus musculus with 39 samples.

Results

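Chronic social defeat was compared with no defeat in astrocytes sorted from the nucleus accumbens (NAc) of male mice, whatever the behavioural outcome of the defeat. The 22 libraries are those that the labels give as NAc, out of 39 in the series. The 8 libraries labelled susceptible and the 7 labelled resilient were pooled as 15 defeated libraries and set against 7 control libraries. Per the labels, cells were taken from fresh punches of both sides with magnetic beads against the astrocyte epitope ACSA-2, and a picogram amount of RNA went into Takara's strand-marking total RNA kit for trace inputs, SMARTer v2 Pico. No gene was altered and no agent was given in any of these groups, so far as the labels say, and neither age nor strain of the mice is stated in them. The labels give every library a mouse id of its own, the same as its sample number, and libraries of both regions were treated as separate mice on that ground alone. The other 17 libraries are labelled PFC (11 defeated, 6 control) and enter only where the NAc difference was set against theirs; the protocol text in the labels names NAc tissue for these too, so their region rests on the labels of tissue and library name.

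In chronic social defeat a mouse is exposed repeatedly to an aggressor, and its later social avoidance sorts it into a susceptible or a resilient class. The nucleus accumbens is a reward region of the ventral striatum in which defeat is known to alter neurons and glia. Astrocytes there take up glutamate and potassium, supply lactate and cholesterol, and respond to transmitters through calcium and cAMP. One target of cAMP is CREB, a transcription factor that binds the cAMP response element in promoters and recruits the coactivators Crebbp and Ep300. Astrocytes also border oligodendrocytes, which make myelin and are coupled to them by gap junctions.

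Library totals ran from 0.941 to 21.9 M (mega) counts in the controls and from 3.16 to 37.3 M in the defeated mice, with means of 12.4 ± 7.63 M and 14.8 ± 9.13 M (SD; exact permutation test, two-sided, p = 0.570). Control replicate 3 (0.941 M) and resilient replicate 7 (3.16 M) were the shallowest. Control replicate 3 also had the highest summed level of pan-neuronal markers, 3265 CPM (counts scaled to library depth) against 1060 to 2106 in the other NAc libraries, whose part in the results was not tested beyond leaving that library out. Counts cover whole gene bodies, introns included, so part of each level is background; it was read from 1451 olfactory, vomeronasal and trace-amine receptor genes, most of them silent in brain. Their cover, as a percent of what an even spread of the library over all gene bodies would give, was 53.1% ± 9.18 in controls and 59.9% ± 9.90 in defeated mice, a difference of 6.83 points (exact permutation test, p = 0.140). In FPKM, a level per gene length and depth, those receptors averaged 0.441 over the NAc libraries, and a gene is called above background here from 2 times that value. The astrocyte label held: 28 of 28 astrocyte markers were above background, with mean levels of 20.0 FPKM for the glutamate transporter Slc1a2, 34.7 FPKM for Atp1b2, which carries the sorting epitope, and 41.0 FPKM for glutamine synthetase, Glul. Oligodendrocyte genes were also present, with 22 of 23 markers above background and Mag, an adhesion molecule of myelin, at 5.68 FPKM, and so were 9 of 11 markers of pericytes and smooth muscle and 9 of 15 of striatal projection neurons, against 4 of 20 microglial markers, 4 of 14 neuronal markers and 2 of 8 markers of oligodendrocyte precursors. No marker on these lists was at 0 in all NAc libraries.

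No gene passed an adjusted p of 0.05 between defeated and control mice among 35943 genes in edgeR's quasi-likelihood fit with Benjamini-Hochberg adjustment (0%, smallest adjusted p = 0.866). At an unadjusted p under 0.05 there were 1741 genes, or 4.84% of those tested, where about 1797 would be met if no gene differed. Of these, 572 were higher (1.59%) and 1169 lower (3.25%) in defeated mice. Differing by over 1.3-fold as well were 0.96% on the higher and 1.74% on the lower side. DESeq2 and limma-voom also passed no gene after adjustment, with 2172 and 1946 at an unadjusted p under 0.05. No gene had groups that did not overlap (0% in either direction). Every gene value that follows is therefore a difference that did not pass the test across genes, and lower or higher refers to the estimate. The imbalance lay in the expressed genes: of 10638 genes above background, 7551 (71.0%) had lower estimates in defeated mice and their median log2 fold change was -0.11, while the median over all genes tested was 0.01. Among the same 10638 genes, 809 were lower (7.6%) and 89 higher (0.837%) at an unadjusted p under 0.05. When these 10638 genes alone were scaled, fitted and tested, which centres them near 0 by construction, the counts were 539 lower and 229 higher.

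Genes of mature oligodendrocytes had the lowest median of the 33 gene lists, and all 23 measured members had lower estimates in defeated mice. The median log2 fold change of the list was -0.81, and 22 of 23 (95.7%) were lower at an unadjusted p under 0.05, beside 7.6% of all genes above background. No member passed the adjusted threshold, and the list was chosen with earlier results of these data known, so its count is no independent evidence of a direction. In a bulk library, fewer cells of a type and less RNA per cell cannot be told apart.

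Mobp, a structural protein of compact myelin, ranged from 103 to 635 CPM in controls around a median of 336. In defeated mice it ranged from 75.4 to 406 CPM around a median of 149.6, and 14 of 15 libraries lay under the control median although the groups overlapped. Its log2 fold change was -1.02 ± 0.35 (SE, adjusted p = 0.866). Adamts4, a secreted protease that cleaves proteoglycans and is made by oligodendrocytes in brain (chr1:171250421-171260637), ranged from 13.7 to 76.2 CPM in controls with a median of 26.4, and from 10.2 to 28.0 CPM in defeated mice with a median of 15.8. Of the 15 defeated libraries, 14 lay under the control median and 4 under the lowest control. The difference was -0.98 ± 0.25, the smallest unadjusted p among the genes named here, with an adjusted p = 0.866. Bcas1, which marks oligodendrocytes that have begun to myelinate, had control values of 74.1 to 155 CPM with a median of 112, and defeated values of 65.2 to 118 CPM with a median of 81.7. Its log2 fold change was -0.48 ± 0.13, and 14 of 15 defeated libraries were under the control median.

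The remaining members span the parts of the myelin sheath. Among its structural proteins, Mbp differed by -0.84 ± 0.32, Mag by -1.06 ± 0.38 and Cldn11, the tight junction protein of myelin, by -1.03 ± 0.35. Of the lipid enzymes, Fa2h, which makes hydroxylated fatty acids, differed by -0.51 ± 0.17 and Ugt8a, which makes galactosylceramide, by -0.70 ± 0.23. Myrf, the transcription factor of myelin genes, differed by -0.81 ± 0.28. Gjb1, the connexin of oligodendrocytes, was the 1 member not above background and differed by -0.57 ± 0.24. Mog was the 1 member that missed the unadjusted threshold (-0.70 ± 0.34). Summed over the 23 genes, controls ran from 1307 to 6899.9 CPM with a median of 3005, and defeated mice from 1031 to 4356 CPM with a median of 1769.8. The 3 controls that stood above every defeated library in this sum were replicates 3, 4 and 6, and 5 of 15 defeated libraries fell below the lowest control. The 8 markers of oligodendrocyte precursors, of which only 2 were above background, had a median of 0.00, with 1 lower and 1 higher at an unadjusted p under 0.05.

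The oligodendrocyte count depended on single controls and on covariates. Without control replicate 4 it was 14 of 23, and without any other single library it was 19 to 23, while the median stayed between -0.95 and -0.59. With the background percent of each library as a covariate, 17 of 23 were lower and the median was -0.58. The 2 marker components named from here on are principal components of the markers of all cell types listed except astrocytes, used as covariates. They include the oligodendrocyte markers, so this list was partly adjusted for itself: 1 of 23 was lower and the median was -0.13. With oligodendrocyte markers left out of the components, 2 of 23 were lower and the median was -0.39, an alternative added after the data were seen.

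**Figure D1:**
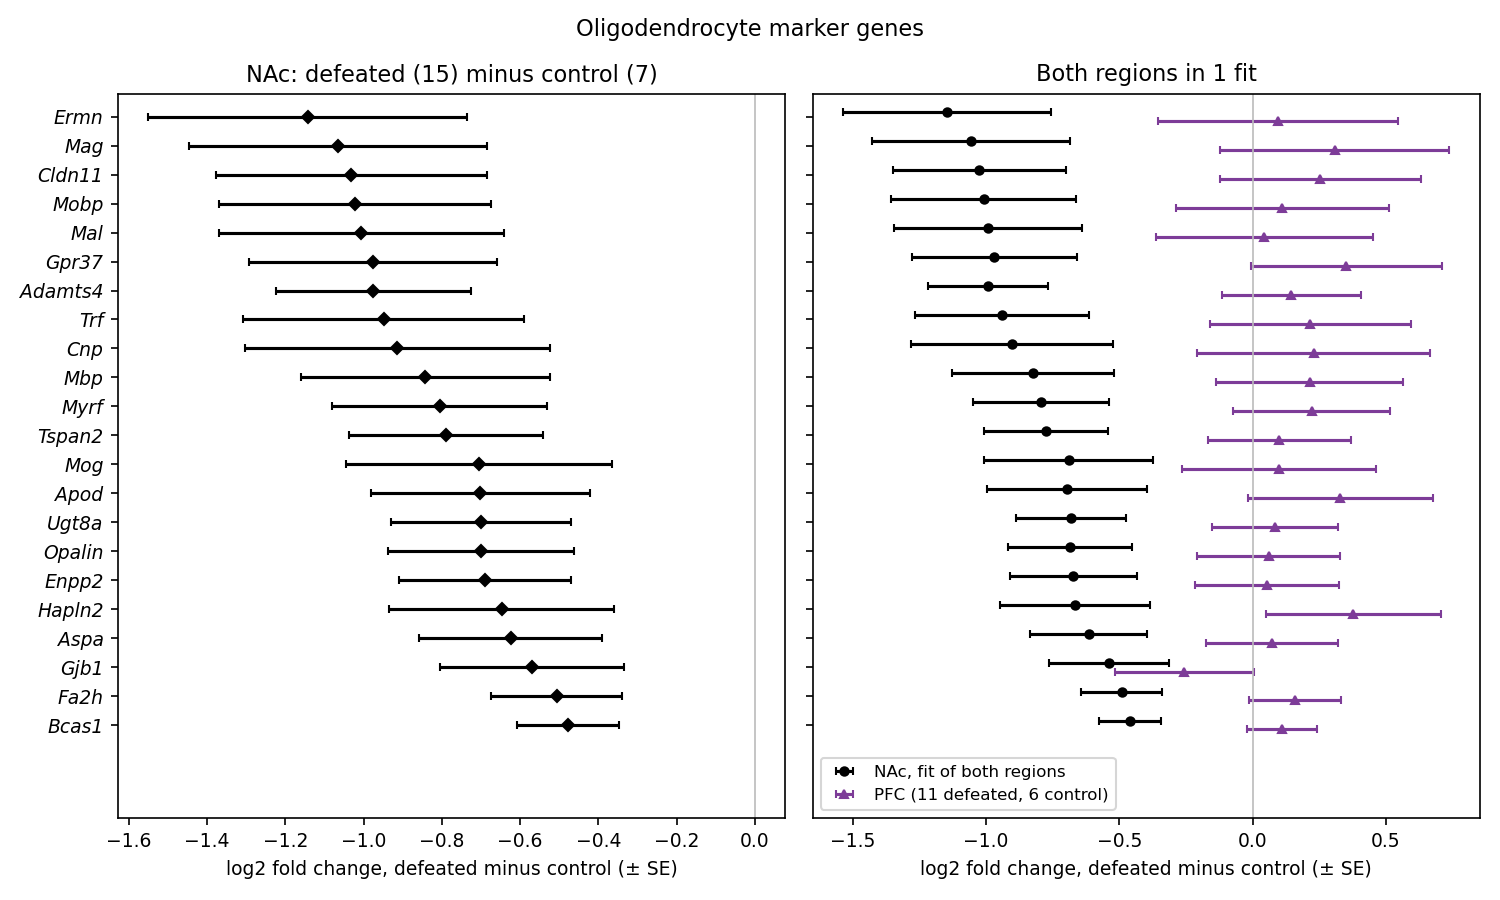
Log2 fold change of 22 oligodendrocyte genes between defeated and control mice, with its standard error. The left panel is the NAc fit (15 defeated, 7 control), in which the estimates lie between -1.14 (Ermn) and -0.48 (Bcas1); the right panel sets NAc (circles) beside PFC (triangles, 11 defeated, 6 control) in 1 fit of both regions, in which the PFC estimates shown are above 0 except that of Gjb1.

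Apart from Adamts4 and Bcas1, 10 further genes completed the 12 with the smallest unadjusted p among the lower ones. The 12 differences lay between -0.98 and -0.28, each with an adjusted p = 0.866 in edgeR. Their mean levels were 0.966 to 2.21 FPKM. Genes counted as above background from 2 times 0.441 FPKM, so the lowest of the 12 were near it. Ptpdc1, a protein tyrosine phosphatase (chr13:48577872-48625664), came nearest to separating the groups: controls ran from 46.5 to 61.6 CPM with a median of 52.8 and defeated mice from 37.9 to 49.0 CPM with a median of 44.0. All but 1 of the 15 defeated libraries were below the lowest control. Its log2 fold change was small, -0.28 ± 0.08. Bnip3l, a receptor that marks mitochondria for removal by autophagy, had controls at 22.1 to 60.7 CPM with a median of 34.9, and all 15 defeated libraries below that median, at 17.0 to 33.9 CPM. The difference was -0.53 ± 0.15. Rcan2, an inhibitor of the calcium-dependent phosphatase calcineurin (chr17:43801351-44039516), ran from 250.4 to 392 CPM in controls with a median of 302, and from 187 to 308 CPM in defeated mice with a median of 236. It differed by -0.33 ± 0.09, with 11 of 15 defeated libraries under the lowest control.

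Several of the others are known from the oligodendrocyte lineage although they were not on the list. Erbb3, a neuregulin receptor, differed by -0.56 ± 0.16, and S1pr5, the sphingosine-1-phosphate receptor of oligodendrocytes, by -0.70 ± 0.20. Ttll7, which adds glutamate chains to tubulin, differed by -0.54 ± 0.15, Serpinb1a, an inhibitor of leukocyte proteases, by -0.61 ± 0.17, and Pik3c2b, a lipid kinase, by -0.48 ± 0.14. Sec14l5 and Gpbp1l1 differed by -0.62 ± 0.17 and -0.52 ± 0.15. All 12 were chosen for a small p in these same libraries, so keeping it in nearly the same data is no separate evidence. They kept an unadjusted p under 0.05 when any 1 library was left out, although the difference of Erbb3 was -0.31 without control replicate 4. They also kept it with the background covariate. With the 2 marker components, which hold Adamts4 and Bcas1 themselves, 10 of 12 did. With oligodendrocyte markers left out of the components, a fit added after the data were seen, 12 of 12 did.

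**Figure D2:**
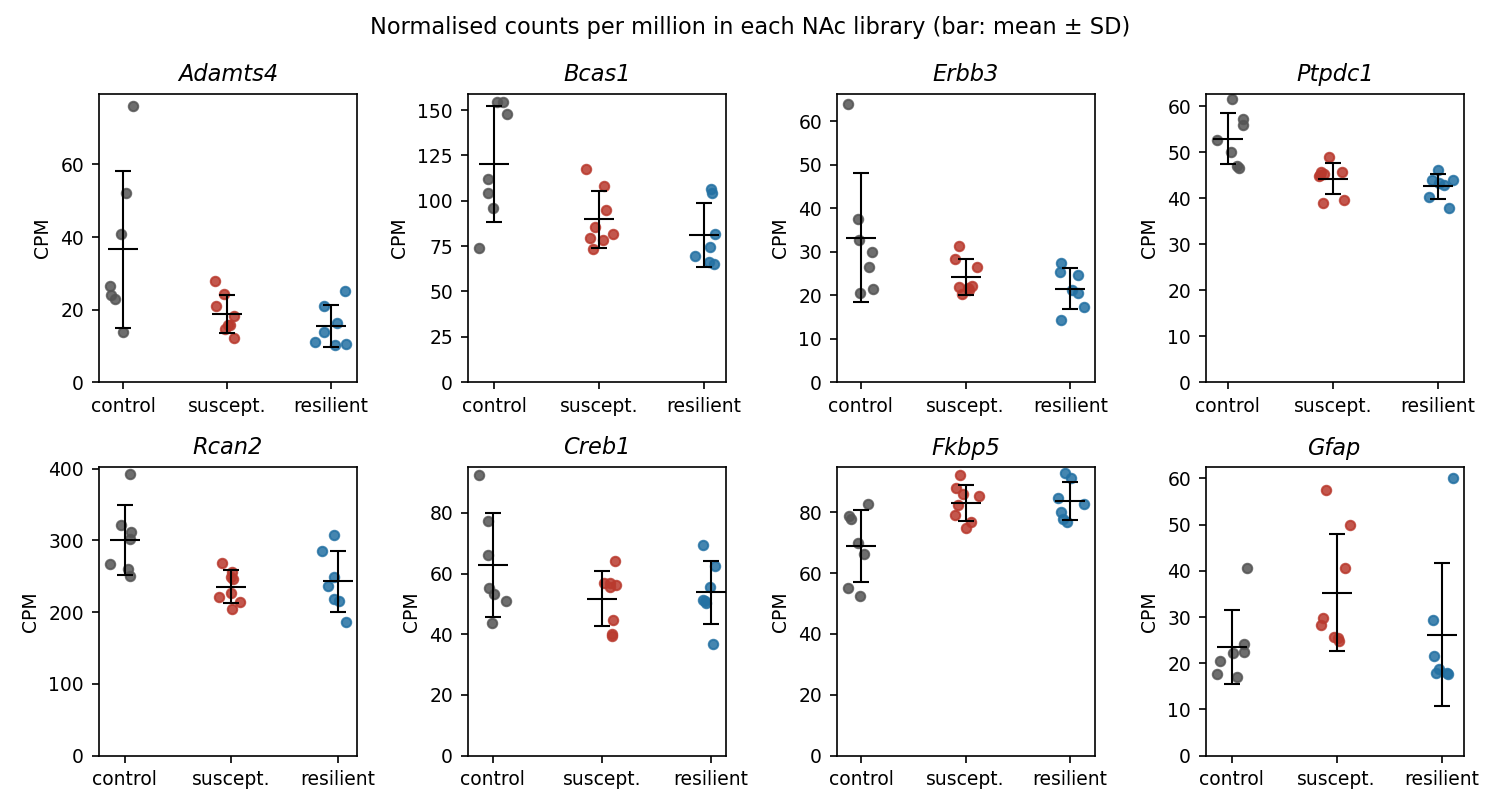
CPM of 8 genes in each NAc library, by group (7 control, 8 susceptible, 7 resilient), with bars for mean ± SD. Adamts4, Bcas1, Erbb3, Ptpdc1 and Rcan2 lie lower in both defeated groups; Fkbp5 lies higher, with every defeated library above the control median of 69.7 CPM, and the Creb1 groups overlap.

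On the higher side the 12 genes with the smallest unadjusted p were all expressed near background, with mean levels of 0.888 to 1.28 FPKM. Their log2 fold changes were 0.23 to 0.55, each with an adjusted p = 0.866. Zic4, a zinc finger transcription factor of brain patterning, ran from 12.3 to 25.8 CPM in controls with a median of 20.1, and from 17.0 to 54.8 CPM in defeated mice with a median of 26.7, and 10 of 15 defeated libraries stood above the highest control. Its difference was 0.55 ± 0.20, and it was 0.58 ± 0.23 in PFC. Tsku, a secreted inhibitor of growth factor signalling, had 11 of 15 defeated libraries above the highest control of 10.8 CPM and differed by 0.33 ± 0.13. Syt17, of the synaptotagmin family, and Sypl2, a synaptophysin-like membrane protein, had all 15 defeated libraries above the control medians of 55.6 and 11.8 CPM, with differences of 0.23 ± 0.09 and 0.31 ± 0.13. Fcgr3, an immunoglobulin receptor of myeloid cells, differed by 0.44 ± 0.18, and Mcpt4, a mast cell protease, by 0.47 ± 0.17 at only 1.21 to 4.57 CPM. Fam131a, Maneal, Krt15, Mylk2, Fam170a and Ntmt1 made up the rest, at 0.25 to 0.47. Of the 12, 5 kept an unadjusted p under 0.05 whichever library was left out.

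Astrocyte markers had lower estimates in 26 of 28 cases, with a median of -0.33, yet none reached even an unadjusted p under 0.05. Their summed level ran from 5075 to 15581 CPM in controls and from 2618 to 15167 CPM in defeated mice, with medians of 7818 and 6602, and 6 of 15 defeated libraries lay below the lowest control. Without control replicate 6 the median of the list was -0.16. Aqp4, the water channel of astrocyte endfeet, had control values of 59.5 to 249 CPM and defeated values of 36.5 to 162 CPM and differed by -0.55 ± 0.30. Slc1a3, a glutamate transporter, differed by -0.36 ± 0.35, Aldh1l1, a folate enzyme used to mark astrocytes, by -0.15 ± 0.16, and Atp1b2 by -0.43 ± 0.34. With the background covariate the median of the list was -0.12, and with the 2 marker components it was 0.19. Gfap, the intermediate filament of astrocytes, went the other way: controls ran from 17.0 to 40.5 CPM with a median of 22.2 and defeated mice from 17.8 to 60.0 CPM with a median of 25.7. Its difference was 0.49 ± 0.25 (adjusted p = 0.866), and 10 of 15 defeated libraries exceeded the control median: all 8 susceptible ones, and 2 of 7 resilient ones, whose median was 18.7 CPM. Susceptible against resilient mice it differed by 0.42 ± 0.26 (adjusted p = 0.998). With the background covariate it was 0.66 (adjusted p = 1.000), and with that covariate among genes above background alone it was 0.68 at an adjusted p of 0.228 in edgeR. The latter fit was added after the data were seen. The lists of genes shared by reactive states, of the neuroinflammatory state and of the ischaemic state had medians of -0.01, -0.02 and 0.09. Only S1pr3 of the first list, a sphingosine-1-phosphate receptor, was lower at an unadjusted p under 0.05 (-0.29 ± 0.12), and no gene of the 3 lists was higher.

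Among transporters and channels, 13 of 14 genes of glutamate and GABA handling had lower estimates (median -0.25), and Abat, which breaks down GABA, was the 1 at an unadjusted p under 0.05 (-0.27 ± 0.11). That number was 0 without control replicate 3 or 6 and 3 without susceptible replicate 4, and the median was 0.12 with the 2 marker components. Of 12 channel and gap junction genes, Slc12a2, a sodium, potassium and chloride cotransporter, differed by -0.68 ± 0.25, from 66.0 to 246 CPM in controls and 48.8 to 154 CPM in defeated mice. Panx2, a pannexin, stood higher: controls lay at 5.33 to 10.1 CPM with a median of 6.41, and every defeated library was above that median, at 7.41 to 14.6 CPM. The difference was 0.47 ± 0.15. Panx2 had a mean level of 0.636 FPKM and was not above background by the definition used here.

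Among the 33 lists, receptors and calcium regulators showed the clearest order in their summed levels. Such sums are carried mostly by abundant genes: in controls Grm3 alone ran from 469 to 1437 CPM, and Rcan2 from 250.4 to 392. The 16 astrocyte receptor and calcium genes summed to 1862 to 3419.7 CPM in controls with a median of 2554, and every defeated library lay below that median, at 1548 to 2525 CPM. Of the 16 genes, 3 were lower (18.8%, beside 7.6% of genes above background) and 1 higher at an unadjusted p under 0.05. The number lower was 0 without control replicate 6 and 1 without control replicate 1, 3 or 4, and it was 0 with the background covariate, with limma-voom and over libraries above 4 M counts. The GABA-B receptor subunits Gabbr1 and Gabbr2 differed by -0.58 ± 0.27 and -0.23 ± 0.10, and the metabotropic glutamate receptor Grm3 by -0.52 ± 0.23, while the noradrenaline receptor Adra1b was higher by 0.23 ± 0.11. The 12 genes of calcineurin and its target NFAT summed to 1027 to 1348 CPM in controls with a median of 1184, and 9 of 15 defeated libraries were under the lowest control. Beside Rcan2 above, the catalytic subunit Ppp3ca was lower at an unadjusted p under 0.05 (-0.26 ± 0.12). With 1 library left out the number was 1 to 3, and it was 1 with the background covariate. The medians of the receptor list and the calcineurin list, -0.07 and -0.09, were close to that of all genes above background.

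Creb1 did not pass the test between defeated and control mice at either threshold. It ran from 43.6 to 92.3 CPM in controls with a median of 55.2 and from 36.6 to 69.4 CPM in defeated mice with a median of 55.4, and 8 of 15 defeated libraries were above the control median. Its log2 fold change was -0.23 ± 0.13 (adjusted p = 0.866), and without control replicate 6 it was -0.10. Its relatives Crem and Atf1, which bind the same element, differed by -0.04 ± 0.11 and -0.05 ± 0.09. Creb1 and Crem had mean levels of 0.763 and 0.646 FPKM and so did not stand above background, while Atf1 did at 0.986 FPKM. Across the 16 genes of the CREB family and its coactivators, 14 had lower estimates, the median was -0.11 and 2 were lower at an unadjusted p under 0.05 (12.5%, beside 7.6% of genes above background). These were the coactivator Crebbp, at 164 to 312 CPM in controls and 106 to 238 CPM in defeated mice (-0.37 ± 0.15), and Crebrf, a regulator of CREB3-type factors (-0.25 ± 0.12). The number lower was 5 without resilient replicate 1 and 0 without control replicate 3 or with the background covariate. Without control replicate 6 neither had an unadjusted p under 0.05, and their values were -0.27 and -0.13.

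Genes known to respond to CREB had a median of -0.02, and 13 of 22 were above background. At an unadjusted p under 0.05, 2 of 22 were lower (9.09%, beside 7.6% of genes above background) and 0 higher. They were Pde4b, a phosphodiesterase that breaks down cAMP (-0.63 ± 0.22, controls 491 to 1479 CPM, defeated 381 to 1067 CPM), and Arc, a synaptic immediate early gene (-0.49 ± 0.22). The full cAMP response element, TGACGTCA, which reads the same on both strands, is shown for 4 genes of these lists, because it is the sequence through which CREB acts. It was searched in the 250 bases before the start of each gene in the RefSeq promoters of GRCm38.p6, where 508 of 32851 held it (1.55%). Capitals mark the element, and each run is read 5′ to 3′ on the strand of the gene.
Scg2: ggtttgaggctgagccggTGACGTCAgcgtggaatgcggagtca
Btg2: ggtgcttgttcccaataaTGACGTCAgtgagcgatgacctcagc
Creb5: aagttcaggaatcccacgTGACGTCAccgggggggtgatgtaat
Dusp1: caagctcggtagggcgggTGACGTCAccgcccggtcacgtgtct
These lie at chr1:79440069-79440112 (minus strand), chr1:134079296-134079339 (minus), chr6:53287240-53287283 (plus) and chr17:26508590-26508633 (minus). Scg2, a precursor of secretory granule peptides, differed by -0.53 ± 0.39, Btg2, a growth arrest gene, by -0.26 ± 0.22, Creb5 by -0.01 ± 0.07 and Dusp1, a phosphatase of MAP kinases, by 0.05 ± 0.09. For Scg2, control replicate 3 stood at 47.6 CPM, where the other controls ran from 2.88 to 11.3. Over all genes above background with a promoter in the table, the 179 with the element had a median of -0.19, with 23 lower (12.8%) and 0 higher at an unadjusted p under 0.05. The 5932 genes as a whole had a median of -0.13, with 567 lower (9.56%) and 29 higher (0.489%).

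The glucocorticoid list gave no common direction among its called genes. Its 20 receptors and targets had a median of -0.20, with 2 lower (10.0%, beside 7.6% of genes above background) and 1 higher at an unadjusted p under 0.05. The number lower was 0 with the background covariate (median -0.08) and with the 2 marker components (median 0.06, or -0.02 with oligodendrocyte markers left out). It was 0 without any one of control replicates 4 and 6, resilient replicates 3, 4 and 6 and susceptible replicate 5. It was 4 without resilient replicate 1 or susceptible replicate 4. The higher gene was Fkbp5, a co-chaperone of the glucocorticoid receptor that glucocorticoids induce (chr17:28399094-28517527). Its controls ran from 52.4 to 82.6 CPM with a median of 69.7, and all 15 defeated libraries lay above that median, at 74.7 to 92.8 CPM with a median of 82.8. The log2 fold change was 0.26 ± 0.08 (adjusted p = 0.866), and it was 0.25 ± 0.09 in susceptible and 0.27 ± 0.10 in resilient mice against the same controls. Without any 1 library it was 0.21 to 0.32, and with the background covariate 0.25. Its mean level of 0.668 FPKM over a gene body with long introns was not above background. The 2 lower genes were Pdk4, a kinase that shuts off pyruvate oxidation (-0.40 ± 0.19), and Arrdc2, an arrestin-like protein (-0.68 ± 0.31). The glucocorticoid receptor Nr3c1 and the mineralocorticoid receptor Nr3c2 differed by -0.20 ± 0.13 and -0.07 ± 0.09, and Tsc22d3, another induced target, by -0.32 ± 0.21.

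Chaperones of the heat shock and unfolded protein responses had lower estimates in 31 of 32 cases, with a median of -0.30, and 7 (21.9%, beside 7.6% of genes above background) were lower and 0 higher at an unadjusted p under 0.05. With the background covariate 2 of 32 were lower, and with the 2 marker components 1 of 32, at a median of 0.02. With oligodendrocyte markers left out of the components the median was -0.08, and 1 of 32 was lower. Hsp90aa1, an inducible cytosolic chaperone, ran from 31.9 to 303 CPM in controls with a median of 112 and from 25.1 to 117 CPM in defeated mice with a median of 50.2. It differed by -0.96 ± 0.36, and by -0.62 without control replicate 3, where it no longer had an unadjusted p under 0.05. The other genes were Xbp1, a transcription factor of the unfolded protein response (-0.46 ± 0.18), Cryab, a small heat shock protein also abundant in oligodendrocytes (-0.79 ± 0.32), Sdf2l1, Dnaja1, Hspa4 and Hsp90ab1. Sdf2l1 stood at 21.4 CPM in control replicate 3, where the other controls ran from 1.73 to 4.25. The number lower was 2 to 15 when 1 library was left out: 2 without control replicate 6, 3 without control replicate 3 or 4, and 15 without resilient replicate 1 or susceptible replicate 4. The mitochondrial chaperones Hspd1 and Hspe1 lie head to head, and the promoter window of each holds a match to a heat shock element, searched on both strands as GAA, TTC and GAA with 2 free bases between units, which 153 of 32851 promoters held (0.466%). A match is in capitals, read on the strand of each gene, in the windows chr1:55088046-55088094 (minus) for Hspd1 and chr1:55088041-55088089 (plus) for Hspe1, shown because both genes are on the list. The stretches overlap, but the capitals mark a different run of bases in each.
Hspd1: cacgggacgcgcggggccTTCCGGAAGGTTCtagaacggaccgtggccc
Hspe1: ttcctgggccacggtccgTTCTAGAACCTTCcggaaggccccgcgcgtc
Hspd1 differed by -0.37 ± 0.21 and Hspe1 by -0.44 ± 0.26, neither with an unadjusted p under 0.05. Of 30 genes above background with this element, 1 was lower at an unadjusted p under 0.05 (3.33%) and the median was -0.11. Among all 5932 genes above background with a promoter, 567 were lower (9.56%) and the median was -0.13.

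Mitochondrial and ribosomal genes also had lower estimates as groups. The 12 measured genes of mitochondrial DNA all had lower estimates, with a median of -0.47, and none had an unadjusted p under 0.05. The nearest was mt-Nd6, a subunit of respiratory complex I (-0.60 ± 0.29). Several of these genes, mt-Co2, mt-Co3 and mt-Atp6 among them, have near-identical nuclear copies, so their counts are uncertain. Mitochondrial genes took 0.771 to 1.92% of counts in controls and 0.491 to 1.77% in defeated mice (means differing by -0.378 points, exact permutation test, p = 0.0603). All 46 cytosolic ribosomal protein genes (median -0.33, with 0 of 46 at an unadjusted p under 0.05) and 35 of 36 nuclear respiratory chain genes (median -0.22, with 2 of 36 lower) had lower estimates; ribosomal protein genes have many processed copies and are likewise uncertain. The numbers lower depended on single libraries: without resilient replicate 1 they were 6 of 12 mitochondrial DNA, 5 of 46 ribosomal and 8 of 36 respiratory chain genes, and without control replicate 6 the medians were -0.28, -0.20 and -0.10 with 0, 1 and 0 lower. The replicate block gave 3 of 12 mitochondrial DNA genes, and limma-voom 7 of 46 ribosomal ones. With the background covariate the mitochondrial DNA and ribosomal medians were -0.31 and -0.14. With the 2 marker components the medians of mitochondrial DNA, ribosomal and respiratory chain genes turned, to 0.15, 0.15 and 0.09. With oligodendrocyte markers left out of the components, those of mitochondrial DNA and respiratory chain genes did not turn, at -0.05 and -0.001.

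**Figure D3:**
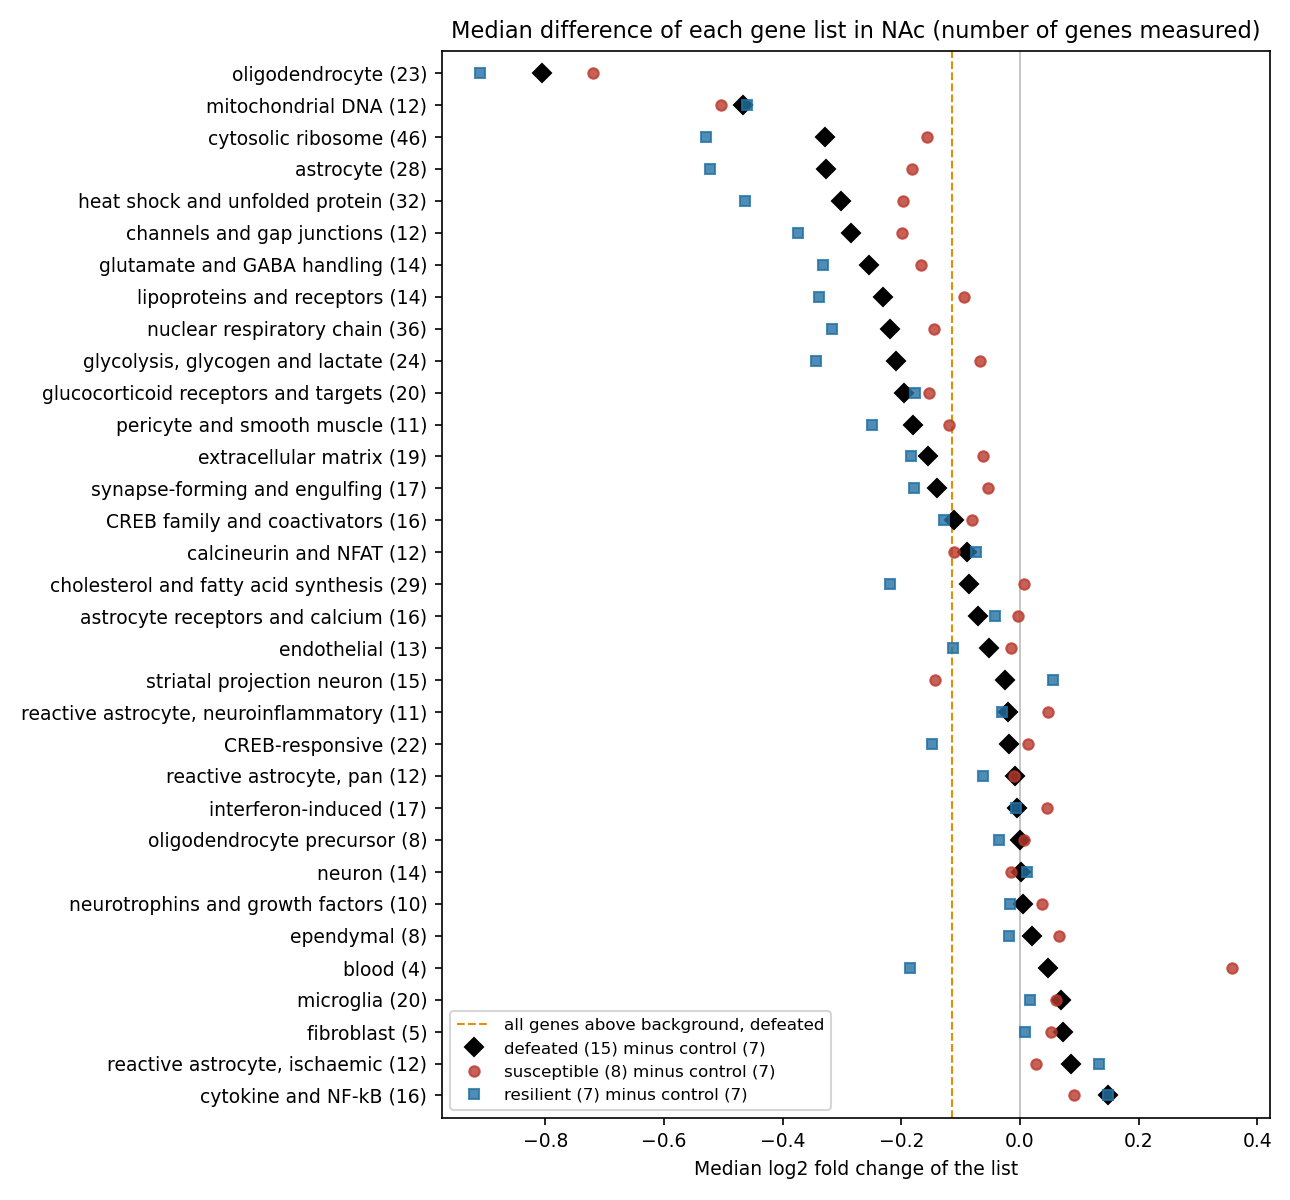
Median log2 fold change of each of 33 gene lists in NAc, with the number of genes measured in parentheses, for all defeated libraries (diamonds) and for the susceptible and the resilient ones against the same 7 controls. The dashed line marks the median of -0.11 over the 10638 genes above background; the oligodendrocyte list lies farthest left at -0.81 and the cytokine list farthest right at 0.15.

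Of the lipid genes, those of lipoproteins and their receptors had 3 of 14 lower at an unadjusted p under 0.05 (21.4%, beside 7.6% of genes above background) and a median of -0.23. The number was 1 without control replicate 4, and the median was -0.14 and -0.12 without control replicates 3 and 6 and -0.02 with the background covariate; with the 2 marker components it was 0.11. Vldlr, a receptor for reelin and apolipoprotein E, ran from 25.9 to 65.5 CPM in controls with a median of 38.4 and from 22.6 to 41.2 CPM in defeated mice with a median of 31.0. It differed by -0.47 ± 0.14, and the cholesterol exporter Abcg1 and the sorting receptor Sort1 by -0.28 ± 0.10 and -0.36 ± 0.17. Without control replicate 4, Abcg1 no longer had an unadjusted p under 0.05 (-0.16). Apoe, the main lipid carrier protein of astrocytes, had a mean level of 168 FPKM and differed by -0.47 ± 0.41. None of 29 genes of cholesterol and fatty acid synthesis and none of 24 of glycolysis, glycogen and lactate reached an unadjusted p under 0.05 (medians -0.09 and -0.21). Of 19 extracellular matrix genes, Adamts4 and Adamts1, a related protease (-0.37 ± 0.18), were lower.

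Medians of the immune and neuronal lists lay close to 0. Above background were 4 of 20 microglial, 5 of 16 cytokine and 4 of 14 pan-neuronal genes. The medians of these lists are thus mostly of genes not above background. Of the interferon-induced genes 9 of 17 were above background, and of the striatal projection neuron genes 9 of 15. Microglial markers had a median of 0.07 with 0 of 20 at an unadjusted p under 0.05, and the 16 cytokine and NF-kB genes had the highest median of all lists, 0.15, with 1 higher, the chemokine Cxcl1, which stayed at or under 2.60 CPM (0.58 ± 0.26). Among 17 interferon-induced genes Xaf1, a cell death factor, was lower in all 15 defeated libraries than the control median of 15.3 CPM (-0.42 ± 0.14), while Ifit1, an RNA-binding antiviral protein, was higher (0.36 ± 0.15). The 14 pan-neuronal genes had a median of 0.00, and the neurofilament genes Nefm and Nefl were higher at 0.29 ± 0.11 and 0.42 ± 0.18, both under the background threshold. Markers of striatal projection neurons, endothelium, ependyma and fibroblasts had medians between -0.05 and 0.07, with 0 at an unadjusted p under 0.05, and pericyte markers one of -0.18.

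The pooled group joins both outcomes, so each was set beside the same 7 controls and against the other. Susceptible mice against control gave 1086 genes at an unadjusted p under 0.05 (3.02%; 1.47% higher, 1.55% lower), resilient mice against control 2206 (6.14%; 1.83% higher, 4.31% lower), and both 0 after adjustment (smallest adjusted p = 1.000 and 0.756). Because both use the same controls, these are not independent. Mobp differed by -0.88 ± 0.41 in susceptible and -1.21 ± 0.43 in resilient mice, and Adamts4 by -0.86 ± 0.29 and -1.12 ± 0.30. The median of the oligodendrocyte list was -0.72 and -0.91, that of astrocyte markers -0.18 and -0.52, and that of the heat shock list -0.20 and -0.46. Susceptible against resilient mice, whose contrast holds no control although the filter, scaling and spread were fitted with the controls, gave 0 genes after adjustment (smallest adjusted p = 0.998) and 1042 at an unadjusted p under 0.05 (2.9%; 1.11% higher, 1.79% lower). The balance turned over genes above background, with 237 higher and 35 lower and a median of 0.13. In a fit of the defeated libraries alone 1588 genes were found, 448 higher and 1140 lower; with the replicate block 1416 were, 767 higher and 649 lower. The number was 2902 without resilient replicate 1 (2148 higher, 754 lower), 650 without resilient replicate 7 and 550 without susceptible replicate 4. In this contrast of outcomes, none of the 12 leading lower genes had an unadjusted p under 0.05. Neither did any of the 23 oligodendrocyte or 28 astrocyte genes. As 2.9% of all genes were called and the 12 were chosen with both outcomes pooled, these counts do not show that the outcomes agree. The smallest p among genes that the naming rule allows belonged to Car4, a membrane carbonic anhydrase, at 0.49 ± 0.13 in susceptible against resilient mice, then Zfp830 (0.85 ± 0.23), Adprhl2 (0.52 ± 0.16), Lgals2 (0.59 ± 0.19) and Nol3 (0.43 ± 0.14).

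The defeat difference in NAc was tested against that in PFC over all 39 libraries. No gene of 37512 passed after adjustment (smallest adjusted p = 0.853), and 1311 were at p under 0.05 before adjustment (3.49%), 812 lower in NAc relative to PFC (2.16%) and 499 higher (1.33%). In limma-voom with consecutive sample numbers taken as pairs of libraries the balance turned, with 1137 higher and 514 lower of 1651. Limma-voom without the pairs was not run for this difference, so method and pairing cannot be told apart. Without PFC susceptible replicate 1 the edgeR balance was 494 higher and 425 lower. Among genes above background 89 were higher and 605 lower, and 206 and 326 with the pairs. In the same fit 731 genes had an unadjusted p under 0.05 for NAc (1.95%; 0.714% higher, 1.23% lower) and 694 for PFC (1.85%; 1.02% higher, 0.826% lower). Oligodendrocyte genes had a PFC median of 0.13. Of these, 18 of 23 were lower in the NAc difference than in the PFC difference at an unadjusted p under 0.05, beside 605 of 11246 genes above background. The same NAc libraries enter this test, so the count is not separate from the NAc result. Adamts4 differed by 0.14 ± 0.26 in PFC, and its difference between regions was -1.14 ± 0.35 (adjusted p = 0.853). Bcas1 gave 0.11 ± 0.13 in PFC and -0.57 ± 0.18 between regions. Astrocyte markers also had estimates of opposite sign, with a PFC median of 0.69 and all 28 members higher there. At an unadjusted p under 0.05, 5 of 28 were lower in the NAc difference, beside the same 605 of 11246 genes. Expressed genes in general went the same way. Over the 11246 genes above background the median in this fit was 0.11 in PFC, with 32.9% lower, and -0.10 in NAc. Their median difference between regions was -0.21, with 69.1% lower. Cyp4x1os, an antisense gene whose reads cannot be told from those of its partner, and Myh14, a non-muscle myosin, were the other leaders, at 1.16 ± 0.34 and -0.62 ± 0.20. Eri1, an exonuclease, also led at -1.93 ± 0.65, on 1 library: control replicate 3 stood at 443 CPM where the control median was 18.2, and without it the value was 0.01.

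**Figure D4:**
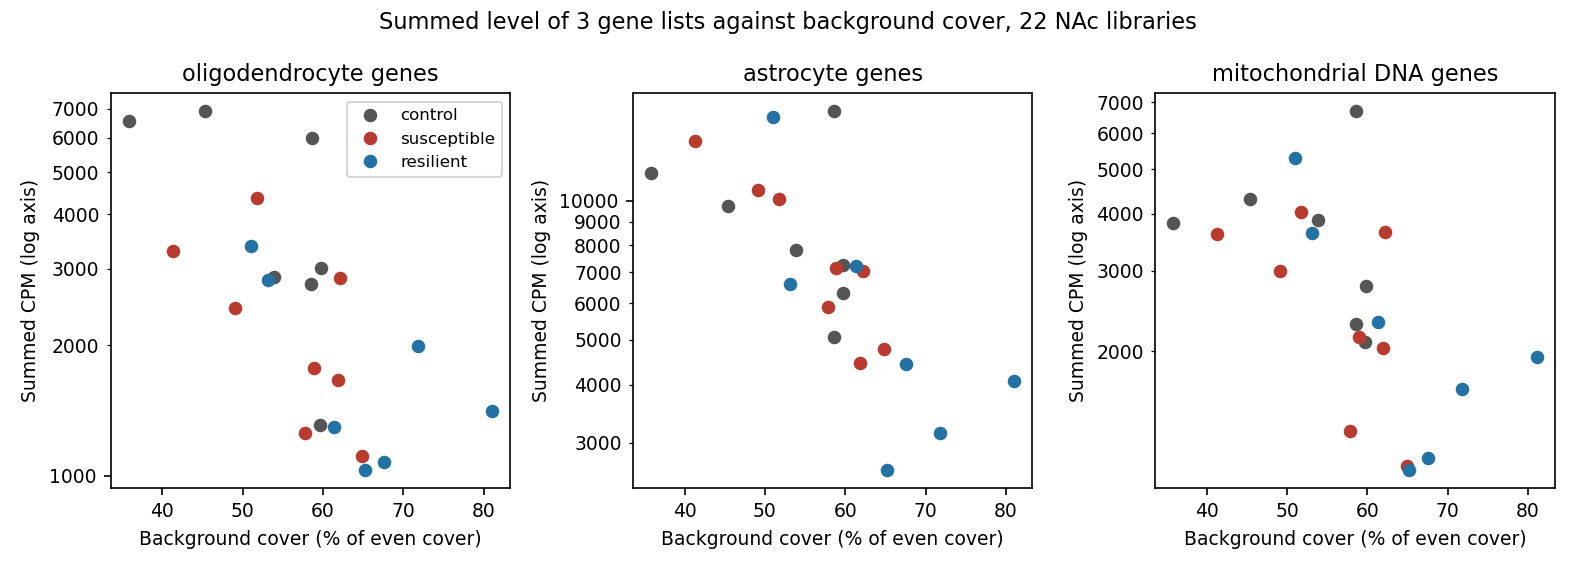
Summed CPM of 3 gene lists (log axis) against the background cover of each of the 22 NAc libraries, coloured by group. Libraries with more background had lower summed levels, with Pearson's r of -0.69 for oligodendrocyte, -0.75 for astrocyte and -0.61 for mitochondrial DNA genes.

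Libraries with more background cover had lower summed levels of oligodendrocyte, astrocyte and mitochondrial DNA genes. This was seen across the 22 libraries and within the defeated ones, and less clearly within the 7 controls. Cover and summed level are both shares of the same library, so they are not independent measures. For the oligodendrocyte sum on a log2 scale, Pearson's r with the background percent was -0.69 and Spearman's rho -0.71 over the 22 libraries (permutation test, adjusted over 9 such relations, p = 0.00081 and 0.0011), and r was -0.64 without the 2 libraries farthest from the median cover. Within the 15 defeated libraries r was -0.65 and rho -0.64 (adjusted permutation p = 0.0147 and 0.0181), and -0.65 without the 2 farthest. Within the 7 controls r was -0.66 and rho -0.57 (exact permutation test, adjusted p = 0.144 and 0.257), and -0.15 without the 2 farthest, control replicates 3 and 4, so there it rests on those libraries. For astrocyte genes r was -0.75 and rho -0.81 over all libraries (adjusted permutation p = 0.00018 and 9.0e-05, the latter from the smallest p that the permutations can give). For mitochondrial DNA genes r was -0.61 and rho -0.71 (adjusted permutation p = 0.0061 and 0.0011). Without the 2 farthest libraries these r were -0.77 and -0.66. Within the defeated libraries r was -0.82 and rho -0.89 for astrocyte genes (adjusted permutation p = 0.00081 and 0.00036), and -0.85 without the 2 farthest. For mitochondrial DNA genes they were -0.63 and -0.68 there (adjusted permutation p = 0.0176 and 0.0119), and -0.73 without the 2 farthest. Within the 7 controls r was -0.42 and rho -0.46 for astrocyte genes (exact permutation test, adjusted p = 0.390 and 0.340), and -0.08 without the 2 farthest. For mitochondrial DNA genes they were -0.30 and -0.39 in controls (exact permutation test, adjusted p = 0.499 and 0.396), and -0.32 without the 2 farthest. The part of background in the lower levels of defeated mice was measured only through the covariate fits given above.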

How the data were processed

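Astrocytes from NAc and PFC of male mice were profiled by total RNA sequencing, and 22 NAc libraries were compared as 15 defeated against 7 control. The deposited tables give whole read counts per gene and FPKM values for each library; per the submitters' processing notes, featureCounts and mm10 were used. For the aligner, versions, annotation and strand setting nothing is stated there (not given in the sources used here), so a gene and its antisense or overlapping partner cannot be told apart. The authors' FPKM values, deposited beside the counts, follow from them with lengths equal to the whole gene span of GENCODE M21 for 54229 of 54229 genes compared (tolerance 1e-06), so introns are counted. Of 55401 gene IDs, 55141 matched a name in M21, which also gave gene coordinates (mm10).

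Counts were tested with edgeR 4.0.16 in R 4.3.3 (TMM scaling, its expression filter, robust quasi-likelihood F test, Benjamini-Hochberg adjustment over all genes). CPM are from the same scaling. DESeq2 1.42.0, limma 3.58.1 and other scalings, filters, covariates, pairs of consecutive sample numbers and left-out libraries were tried as alternatives. The fits over libraries above 4 M counts and with the background covariate over genes above background alone were added after the data were seen. Only the edgeR fit of defeated against control was checked on simulated counts, which held no shift in background or cell mix. The other fits were not checked in this way. Genes above background have at least 2 times the mean FPKM of 1451 chemosensory receptor genes. Named genes are, above background and with average log2 CPM over 1, leaving out predicted genes, pseudogenes and receptor families, the 12 per direction with the smallest p (none passed adjustment) and the 5 with the smallest p for susceptible against resilient and for NAc against PFC. Up to 4 members of each list were named by smallest p, and Creb1, Crem, Atf1, Atp1b2, Aldh1l1, Aqp4 and Slc1a3 always; further members, those with printed promoters included, were chosen after their values were seen. Pooled groups, lists and tests were chosen with earlier results of these data known. Single values per library were compared by exact permutation over 170544 assignments. Values of 1 gene of the oligodendrocyte list are not reported here.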

Additional observations from a re-analysis of the deposited data

Results flagged for a closer look

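In 11 of 99 groups of libraries checked, the highest or lowest library stood far from the others of its group, where chance flags about 1 in 20 groups. Of the genes with lower estimates, Pik3c2b stood at 99.6 CPM in susceptible replicate 3 (nearest 76.8) and Erbb3 at 63.9 CPM in control replicate 4 (nearest 37.4). Control replicate 3, the shallowest library, was lowest for 3 genes with higher estimates: Maneal at 0 CPM (nearest 5.02), Tsku at 2.38 CPM (nearest 7.41) and Sypl2 at 3.57 CPM (nearest 10.9). Mcpt4 was at 4.57 CPM in resilient replicate 7 (nearest 3.13) and Zic4 at 54.8 CPM in resilient replicate 1 (nearest 27.0). Fam131a was at 15.1 CPM in control replicate 6 (nearest 11.3) and at 16.3 CPM in susceptible replicate 4 (nearest 14.2), and Ntmt1 was at 22.8 CPM in the same susceptible library (nearest 17.7). The summed level of astrocyte markers was 15167 CPM in resilient replicate 1, where the next resilient library had 7214 CPM.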

How the results depend on the processing

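No alternative passed a gene at an adjusted p of 0.05 between defeated and control mice. The count at an unadjusted p under 0.05 (1741) was 806 with 2 marker components as covariates, 712 with oligodendrocyte markers left out of these, 1090 with the background covariate, 768 over genes above background alone and 443 with both of the latter. With a fold above 1.3 the count was 429, 377, 557, 394 and 187 in that order, and 1720 with no count filter. The share of lower estimates among called genes was 67.1%, and 54.5% without a filter, 35.4% with the marker components and 41.4% without oligodendrocyte markers in them. Leaving out 1 library gave 860 (without control replicate 6) to 3066 (without control replicate 5) genes, and 525 to 1855 with the fold; the count was also 930 without control replicate 4, 2874 without control replicate 7 and 3004 without resilient replicate 1. Susceptible against resilient ranged from 550 to 2902, and was 1588 in a fit of defeated libraries alone; NAc against PFC ranged from 678 (without PFC control replicate 4) to 3579 (without PFC control replicate 2). Means of background cover differed by 3.95 to 8.16 points and library totals by 0.422 M to 3.91 M. Creb1 was 0.045 with the marker components. Crem was 0.13 with them, 0.077 with those without oligodendrocyte markers, 0.0036 with the background covariate, and -0.079 to 0.028 with 1 library left out. Atf1 was 0.044, 0.023 and 0.0094 in the same 3 fits, 0.083 over genes above background and 0.028 with the covariate there. The cause was not tested. With the replicate block, defeated against control gave 1896 genes, susceptible against resilient 1416 in place of 1042, and 0 after adjustment; 7 of 21 same-numbered pairs correlated over 0.1, so the numbers were not treated as pairs. The shallowest library limits low genes most.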
